A study of Mus musculus with 10 samples.

Results

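Osteoclast-type genes are genes best known from the osteoclast, the large cell that dissolves bone, and 10 of them were followed in the lungs of mice exposed to cigarette smoke. They were chosen by name and are 10 of the 27670 genes that the arrays represented, measured by 15 probes. Each of 10 arrays measured the lung of 1 female mouse of the inbred strain BALB/c, aged 6 to 8 weeks on arrival, and each group had 5 mice, a number that limits the precision. The smoke group breathed the smoke of 12 cigarettes in each of 2 daily exposures of 50 minutes, on 5 days per week for 8 weeks, and the control group breathed room air. Whole lung was measured, so that fewer cells of a type and less RNA per cell cannot be told apart.

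Osteoclasts arise from cells of the monocyte and macrophage lineage. The ligand RANKL, encoded by Tnfsf11, binds its receptor RANK, encoded by Tnfrsf11a, and the decoy receptor osteoprotegerin, encoded by Tnfrsf11b, holds the ligand back. Signals from the receptor turn on the transcription factor Nfatc1, which in bone drives genes for cell fusion, acid secretion and matrix digestion; several of these genes are also used by macrophages outside bone.

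Each level is a log2 ratio of the red signal, which held the lung RNA, over the green signal of a reference RNA, and differences are smoke minus room air. Since only 1 dye is named in the labels but red and green are in the files, Y chromosome and lung genes were used to tell which channel held the lung. In green, Ddx3y and Eif2s3y of the Y chromosome stood well above background on each of the 10 arrays, in red on 2 and 0 of them. Sftpc and Scgb1a1, made by lung epithelium, were brighter in red by 6.39 and 6.72 on the log2 scale. Saturation was recorded in red for the probe of Sftpc, so that its 6.39 is not exact. All 7 lung epithelium markers were well above background in red, and 0 of them passed limma's test between the groups, although Aqp5 did with the slide as a replicate block (log2 difference -0.23, adjusted p = 0.0266). The share of red spots well above background was 67.8 to 76.7% with room air and 64.9 to 77.5% with smoke. Every direction given rests on this reading and on the assignment of the scanner files to the samples, because the deposited table of processed values holds the groups the other way round. All 286449 of its values equal, within 0.0001, those of the array of the same number in the other group.

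Room air replicate 1 stood apart from the other room air lungs in genes of inflammation. The summed red signal of the neutrophil markers was 108784 in this lung and 16234 to 25751 in the other room air lungs, and its log2 ratio of Tnf was 1.92 where the next highest was -0.80. For listed genes whose call changes without this lung, the result is given with and without it. The lung was singled out after these values were seen. For Tnf and the neutrophil markers, results without it are therefore descriptions and not tests.

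Of the 10 genes, 5 passed the threshold of an adjusted p of 0.05 in limma's two-sided test, where 8.23% of all genes did. Ctsk, Acp5, Atp6v0d2 and Dcstamp rose with smoke, against 4.96% of all genes, and Tnfrsf11b fell, against 3.27%. In 3 of the genes that rose the fold change was over 2, where 0.625% of all genes rose by as much. In 4 of the 10 every smoke lung lay above every room air lung, where 4.61% of all genes did. The median log2 difference was 0.28 over the 10 genes and 0.00 over all genes, where the normalization within arrays holds it near 0. The genes were chosen with earlier results of these lungs known, so the counts describe them and do not test them as a group.

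**Figure D1:**
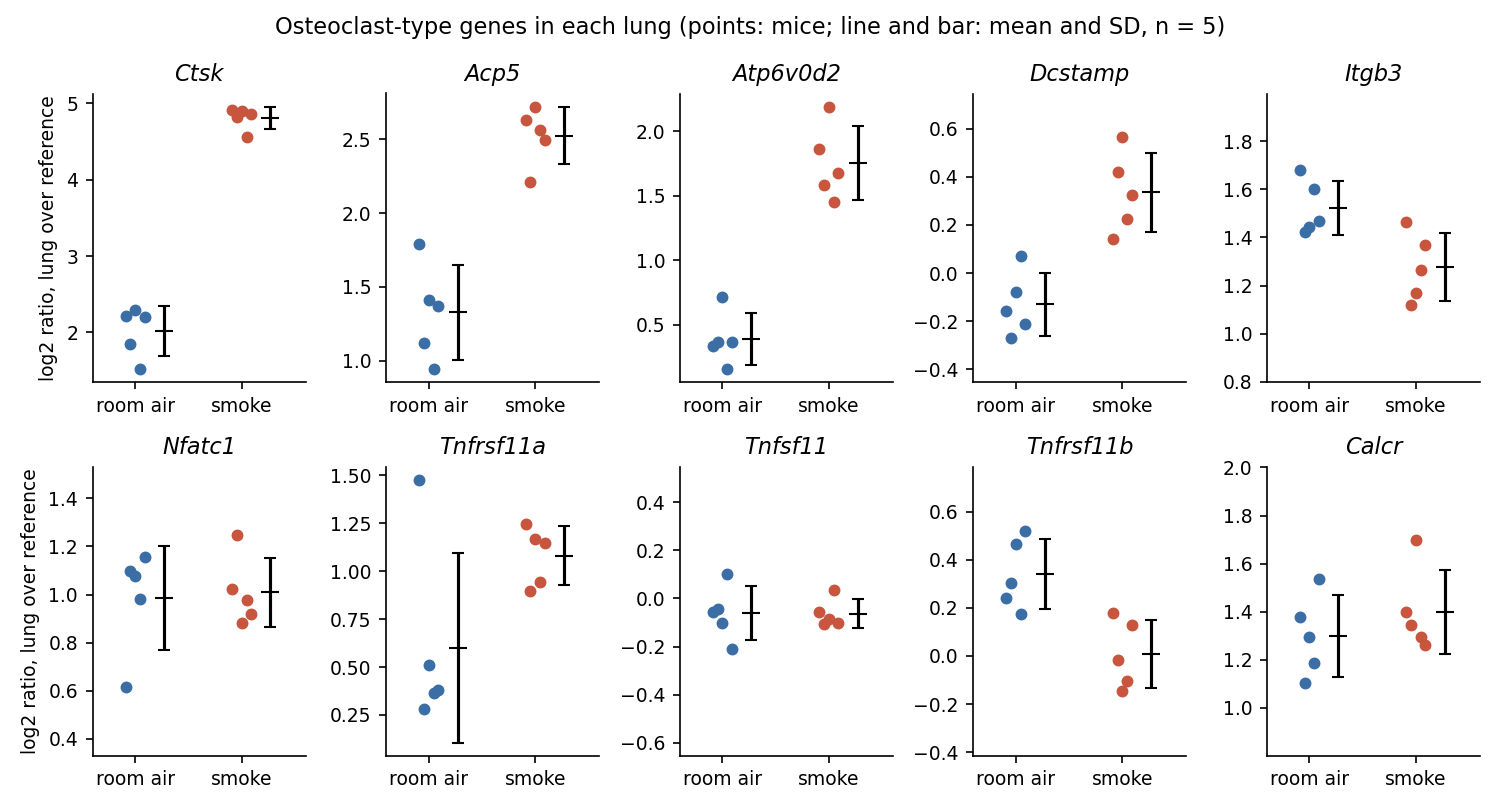
Log2 ratio of lung over reference for the 10 osteoclast-type genes (brightest probe of each), with room air in blue and smoke in red; points are mice, and the line and bar are the mean and SD of 5. The vertical axis has its own range in each panel, and the groups do not overlap in Ctsk, Acp5, Atp6v0d2 and Dcstamp.

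Promoter sequence from RefSeq was matched to 5 of the 10 genes (Ctsk, Acp5, Tnfrsf11a, Tnfsf11 and Calcr), with 8 start sites between them. The 250 bases before the start are shown for Ctsk and for 1 of the 3 start sites of Acp5, because these genes rose and these windows hold matches to the letters searched. Capitals mark those matches, read 5′ to 3′ on the strand of the gene. The Ctsk window lies at chr3:95498960-95499209 on the plus strand and that of Acp5 at chr9:22130599-22130848 on the minus strand, both of GRCm38.p6.
Ctsk: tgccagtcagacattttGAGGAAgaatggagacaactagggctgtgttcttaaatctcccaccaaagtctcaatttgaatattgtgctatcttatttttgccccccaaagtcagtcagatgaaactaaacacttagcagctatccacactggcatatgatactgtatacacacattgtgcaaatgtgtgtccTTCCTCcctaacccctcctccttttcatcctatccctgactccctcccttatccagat
Acp5: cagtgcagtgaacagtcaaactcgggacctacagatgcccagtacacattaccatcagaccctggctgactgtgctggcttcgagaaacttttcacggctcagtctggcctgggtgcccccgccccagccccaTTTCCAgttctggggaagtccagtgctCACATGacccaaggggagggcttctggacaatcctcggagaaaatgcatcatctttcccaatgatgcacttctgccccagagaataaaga

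The letters were searched on both strands. GAGGAA, a core that PU.1 can bind, is in the Ctsk window 2 times and in 23.3% of the 32851 promoter windows of this length. CATGTG, bound by factors of the MITF family, and TGGAAA, bound by NFAT factors, are each in the Acp5 window 1 time, and in 12.3% and 18.6% of all windows. CACGTG and TGANTCA, in 6.02% and 6.75% of all windows, are in neither of the windows shown, and the other 2 windows of Acp5 hold none of these letters. No motif overlapped another. Such matches describe the sequence and do not show that a factor binds there.

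The ligand came first in the pathway and was not detected. Neither probe of Tnfsf11 was well above background on any of the 10 arrays, in red or in green, so no fold is given. Its receptor gene was detected on all arrays, and its probes differed in their call. The brighter probe of Tnfrsf11a had log2 ratios of 1.48, 0.28, 0.51, 0.36 and 0.38 in room air replicates 1 to 5, and of 1.25, 0.90, 1.17, 0.94 and 1.15 in smoke replicates 1 to 5. All smoke lungs lay above room air replicates 2 to 5 and below room air replicate 1, so that the groups overlapped. The difference was 0.48 with an SE of 0.20 and did not pass (adjusted p = 0.221). Leaving out room air replicate 1 brought it to 0.70 (adjusted p = 0.00028). On the slide that held room air replicate 1 the difference was -0.23, and on the other slides it was 0.58 to 0.77. The dimmer probe had a difference of 0.34 (SE 0.09, adjusted p = 0.0422), which with the slide as a replicate block gave an adjusted p of 0.0545, and 9 of 10 fits that left out an array lost the call (adjusted p up to 0.103); without room air replicate 1 it was kept (adjusted p = 0.0044). The call was also lost with offset 0 and with the scanner's own ratio (differences 0.64 and 0.61, adjusted p = 0.0776 and 0.106), with median centring (0.29, adjusted p = 0.171) and with both settings that used red alone (0.63 and 0.34, adjusted p = 0.357 and 0.162).

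Osteoprotegerin was the member that fell. Tnfrsf11b had log2 ratios of 0.24, 0.30, 0.47, 0.18 and 0.52 with room air and of 0.18, -0.02, -0.15, -0.10 and 0.13 with smoke. The groups touched at a single pair of lungs, smoke replicate 1 and room air replicate 4, and the difference was negative on 5 of 5 slides. It fell by 0.33 on the log2 scale (SE 0.08, adjusted p = 0.0364). The call was lost without any 1 of 6 arrays (room air replicates 2, 3 and 5 and smoke replicates 2, 3 and 4; adjusted p 0.0656 to 0.0921), and with 4 other settings of background, scaling or channel.

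Among the 9 genes listed as ligands and receptors of osteoclast precursors, 1 rose and 1 fell. Csf1r, the receptor for the growth factor that keeps macrophages alive, rose 1.49-fold, with an SE of 0.08 on the log2 scale (adjusted p = 0.00128) and every smoke lung above every room air lung. The call of Csf1r was lost with median centring (adjusted p = 0.0591) and with both settings that used red alone (adjusted p = 0.127 and 0.06). Its ligands Csf1 and Il34 had differences of 0.46 and 0.49 (adjusted p = 0.131 and 0.0969). Without room air replicate 1 they were 0.64 and 0.65 and passed (adjusted p = 0.000256 and 0.000137). Tnf, also a ligand, had a difference of 0.19 (adjusted p = 0.922), and 0.77 without that lung (adjusted p = 0.00155), which was singled out partly by its Tnf. Tnfrsf1a, a receptor for Tnf, and Lgr4, another receptor for RANKL, had differences of 0.14 and -0.19 and did not pass (adjusted p = 0.508 and 0.271); with the slide as a replicate block Lgr4 did (adjusted p = 0.0416), as did Il34 (adjusted p = 0.0326). Lgr4 also passed with the scanner's own ratio (-0.54, adjusted p = 0.0139), and Il34 with ratios scaled between arrays (0.57, adjusted p = 0.0457).

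The transcription factor that commands the osteoclast program showed no detected difference. Nfatc1 was well above background in every lung, and its brighter probe, made to transcript variant 2, had log2 ratios of 0.61 to 1.16 with room air and 0.88 to 1.25 with smoke. The groups overlapped throughout. The difference was 0.02 with a 95% interval of -0.21 to 0.25 (adjusted p = 0.955). The probe for transcript variant 1 gave -0.08, with an interval of -0.30 to 0.13 (adjusted p = 0.772). When room air replicate 1 was left out, the brighter probe gave -0.07 (adjusted p = 0.758). Of the 5 NFAT family genes 0 passed; Nfatc2, Nfatc3, Nfatc4 and Nfat5 had differences of -0.06, 0.12, 0.18 and -0.26, and Nfat5 passed with the slide as a replicate block (adjusted p = 0.00721) and with median centring (-0.37, adjusted p = 0.0373).

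Signalling between receptor and nucleus was partly higher. Of 23 genes for RANK signalling and its transcription factors 7 rose and 1 fell, with a median difference of 0.12. Syk and Btk, kinases downstream of immunoreceptors, rose by 0.69 and 0.68 on the log2 scale (adjusted p = 0.0216 and 0.0309), although the groups overlapped in both. Syk lost its call without room air replicate 2 or 3 or smoke replicate 1 (adjusted p 0.0507 to 0.0594). Btk lost it without any 1 of 7 arrays, room air replicates 2 to 5 and smoke replicates 1, 3 and 5 (adjusted p 0.0542 to 0.0721). Median centring ended both calls (adjusted p = 0.092 for Syk and 0.107 for Btk), as did the processed red signal for Syk (adjusted p = 0.0847) and offset 0 and the scanner's own ratio for Btk (adjusted p = 0.0737 and 0.0735). Plcg2, Spi1, Tec, Ppargc1b and Camk4 also rose, 1.48-fold, 1.49-fold, 1.40-fold, 1.32-fold and 1.24-fold (adjusted p = 5.98e-05, 0.00541, 0.00481, 0.00897 and 0.0214). Their groups did not overlap. The gene that fell was Jun, at -0.52 (adjusted p = 0.00201). Relb and Nfkb2, subunits of the transcription factor NF-kB, had differences of 0.25 and 0.24 (adjusted p = 0.759 and 0.719). When room air replicate 1 was left out these were 0.56 and 0.52 and passed (adjusted p = 0.000107 and 8.62e-05), with every smoke lung above the other room air lungs. The other NF-kB subunits listed, Nfkb1 and Rela, had differences of -0.15 and -0.18 with all lungs and of 0.09 and -0.14 without that lung, and did not pass (adjusted p = 0.581 and 0.586 without it). All genes of this paragraph other than Syk and Btk were named after their values were seen.

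Stronger differences were found in the receptors and adaptors that costimulate osteoclasts and macrophages. Of the 4 genes measured 3 rose. Trem2, a lipid-sensing receptor, rose 8.15-fold (SE 0.08, adjusted p = 3.45e-09). Its adaptor Tyrobp rose 1.95-fold (SE 0.08, adjusted p = 4.2e-05), and Fcer1g, the adaptor of Fc receptors, 2.36-fold (SE 0.16, adjusted p = 0.000813). In these 3 genes every smoke lung lay above every room air lung. Oscar, the receptor named after osteoclasts, had a difference of 0.06 (adjusted p = 0.759). Siglec15 was not analysed here.

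Repressors of osteoclast formation moved in opposite directions. Irf8, a transcription factor of the monocyte lineage, rose 1.26-fold (adjusted p = 0.00579) and Id2 rose 1.21-fold (adjusted p = 0.0228). Id1 fell by 0.60 (SE 0.08, adjusted p = 0.000993) and Id3 fell by 0.54 (SE 0.06, adjusted p = 0.000258) on the log2 scale. In these 4 genes the groups did not overlap, and Id2 lost its call without smoke replicate 2, 4 or 5 (adjusted p 0.0513 to 0.0611). With the processed red signal alone none of Irf8, Id1, Id2 and Id3 passed (adjusted p = 0.065, 0.078, 0.174 and 0.0747). Median centring ended the calls of Irf8 and Id2 (0.24 and 0.18, adjusted p = 0.436 and 0.486), offset 0 that of Id2 (adjusted p = 0.102), and red alone after quantile normalization that of Id1 (adjusted p = 0.0711). Bcl6 had a difference of -0.17 (adjusted p = 0.433).

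Dcstamp, the membrane protein required for the fusion of osteoclast precursors, was dim: 4 of the 5 lungs given room air and all 5 given smoke had a signal well above background. Its log2 ratios were -0.16, -0.27, -0.08, 0.07 and -0.21 with room air and 0.14, 0.42, 0.56, 0.22 and 0.33 with smoke. The lowest smoke lung lay just above the highest room air lung. The fold change was 1.38 (SE 0.09, adjusted p = 0.00742), and the difference was above 0 on 5 of 5 slides. The size depended on the processing. With the scanner's own ratio the log2 difference was 1.76 and with offset 0 it was 1.25, and both passed (adjusted p = 0.0145 and 0.0161). With the processed red signal alone it was 1.84 instead of 0.47, and did not pass (adjusted p = 0.0557); over all settings tried the adjusted p was 0.00529 to 1.

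Of the 8 fusion genes 5 rose, with a median difference of 0.45. Adam8, a surface protease, rose 3.54-fold (SE 0.19, adjusted p = 0.000173), Sirpa rose 1.75-fold (SE 0.11, adjusted p = 0.000836) and Cd44, a hyaluronan receptor, rose 1.77-fold (SE 0.20, adjusted p = 0.0268). Cd44, in which the groups overlapped, lost its call without any 1 of 8 arrays, all but room air replicate 1 and smoke replicate 4 (adjusted p 0.059 to 0.0673), and with offset 0 (adjusted p = 0.0525). Cd9, a tetraspanin, rose 1.36-fold (adjusted p = 0.00143). Its call was lost with median centring and with the processed red signal alone (adjusted p = 0.212 and 0.0554), and as the mean of all its probes (0.15 on the log2 scale, adjusted p = 0.0509). Ocstamp, the partner of Dcstamp, had a difference of 0.27 (adjusted p = 0.436), and as the mean of all its probes one of 0.39, which passed (adjusted p = 0.0123). Sizes with other settings ran up to 0.60 for Ocstamp. Cd47 had a difference of 0.08 (adjusted p = 0.613). Adam12 was not well above background in red on any array, so no fold is given; with the processed red signal alone it passed as lower (adjusted p = 0.0272).

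Ctsk, the collagen-digesting cathepsin of the osteoclast, showed the largest difference of the 10 genes. Its log2 ratios were 2.21, 1.85, 2.30, 1.52 and 2.20 with room air and 4.92, 4.83, 4.90, 4.56 and 4.86 with smoke. All smoke lungs lay far above all room air lungs, and smoke replicate 4 was the lowest of its group. The fold change was 6.95, with an SE of 0.14 on the log2 scale (adjusted p = 6.67e-07), and within slides the log2 difference ran from 2.60 to 3.04. The green signal of the reference was also higher on every smoke array (7.12 to 7.46 on the log2 scale) than on every room air array (6.56 to 6.78). In the red channel alone the means differed by 3.38, and in green by 0.58.

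Acp5, tartrate-resistant acid phosphatase, is the classic stain of osteoclasts and is also made by alveolar macrophages. It had log2 ratios of 1.79, 1.12, 1.41, 0.94 and 1.37 with room air and of 2.63, 2.21, 2.72, 2.57 and 2.50 with smoke. Room air replicate 1 was the highest of its group and lay below the lowest smoke lung. Acp5 rose 2.29-fold (SE 0.15, adjusted p = 0.000526), and by 0.84 to 1.62 on the log2 scale within slides.

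Atp6v0d2 encodes a subunit of the V-ATPase, the proton pump that acidifies lysosomes and the space beneath an osteoclast. Its log2 ratios were 0.33, 0.37, 0.72, 0.16 and 0.37 with room air and 1.86, 1.58, 2.19, 1.45 and 1.67 with smoke. Replicate 3 was the highest of each group, and the groups were well apart. Atp6v0d2 rose 2.58-fold (SE 0.14, adjusted p = 0.000148), and within slides the log2 difference was 1.21 to 1.53. With the processed red signal alone the log2 difference was 2.38 instead of 1.36.

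**Figure D2:**
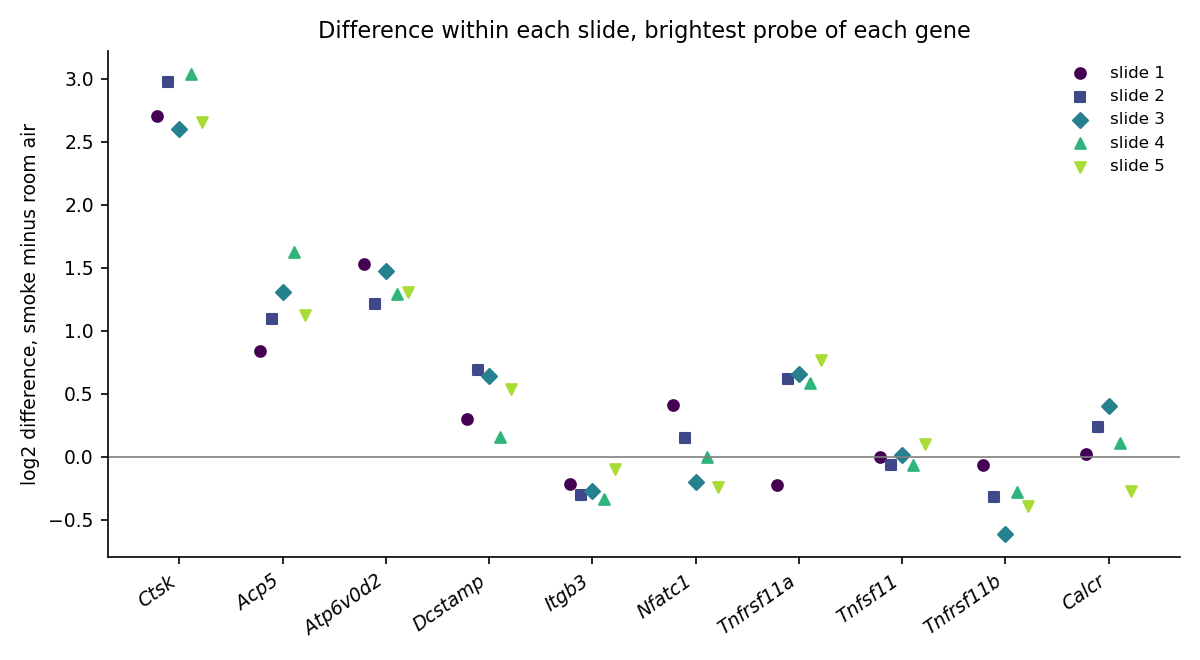
Log2 difference between the smoke and the room air lung on each of the 5 slides, for the brightest probe of each osteoclast-type gene; each symbol is a slide. Ctsk, Acp5, Atp6v0d2 and Dcstamp are above 0 and Itgb3 and Tnfrsf11b below 0 on every slide, and Tnfrsf11a is below 0 on slide 1 alone.

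Of 25 V-ATPase genes, Atp6v0d2 included, 9 rose and 1 fell, with a median difference of 0.18. Of the 24 others 8 rose and 1 fell, with the same median. Tcirg1, the membrane subunit used by osteoclasts, rose 1.53-fold (SE 0.07, adjusted p = 0.000401). Atp6v0d1, the widely expressed relative of Atp6v0d2, rose 1.34-fold (adjusted p = 0.000598), and Atp6v0a4 fell by 0.46 on the log2 scale (adjusted p = 0.00228). Atp6v1c1 had a difference of 0.49 (adjusted p = 0.0335), and of 0.45 when room air replicate 1 was left out (adjusted p = 0.054). These 3 genes were named after their values were seen.

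Other genes of acid secretion and resorption mostly missed the threshold. Of 10 listed, Tcirg1 and Slc9b2 rose, the latter 1.21-fold (adjusted p = 0.0296). Slc9b2 overlapped between the groups and lost its call without any 1 of 8 arrays, all but room air replicate 1 and smoke replicate 2 (adjusted p 0.0507 to 0.0787). It was also lost with offset 0, the scanner's own ratio and median centring (0.63, 0.90 and 0.27, adjusted p = 0.0983, 0.155 and 0.167) and with both settings that used red alone (0.55 and 0.31, adjusted p = 0.118 and 0.145). Clcn7 and Ostm1, which form the chloride exchanger of the resorbing membrane, had differences of 0.15 and 0.06 (adjusted p = 0.103 and 0.86). Car2, the carbonic anhydrase that supplies protons, had one of -0.27 (adjusted p = 0.143), and the proteases Mmp9 and Mmp14 had -0.09 and 0.12. When room air replicate 1 was left out, Mmp9 and Mmp14 had 0.15 and 0.18 and did not pass (adjusted p = 0.662 and 0.0855). Snx10 had a difference of 0.54 (adjusted p = 0.0768), which became 0.71 when room air replicate 1 was left out (adjusted p = 0.000207). With the slide as a replicate block both Car2 and Snx10 passed (adjusted p = 0.0184 and 0.0364). Slc4a2 and Plekhm1 had differences of 0.10 and 0.17 and did not pass.

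Of 14 cathepsins measured, Ctsk included, 10 rose and 0 fell, with a median difference of 0.68; of the 13 others 9 rose, with a median of 0.60. Ctsd rose 3.38-fold (SE 0.09, adjusted p = 6.52e-07), Ctss 2.72-fold (SE 0.09, adjusted p = 4.96e-06), Ctsz 2.05-fold (SE 0.06, adjusted p = 2.74e-06) and Ctsb 2.02-fold (SE 0.10, adjusted p = 0.00015). These are lysosomal proteases that are not particular to osteoclasts. Ctsa, Ctsc and Ctsl rose 1.91-fold, 1.70-fold and 1.51-fold (adjusted p = 2.76e-05, 0.00346 and 0.000266). Ctsh, named after its value was seen, had a difference of 0.42 (adjusted p = 0.0426), and of 0.40 when room air replicate 1 was left out (adjusted p = 0.0669).

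**Figure D3:**
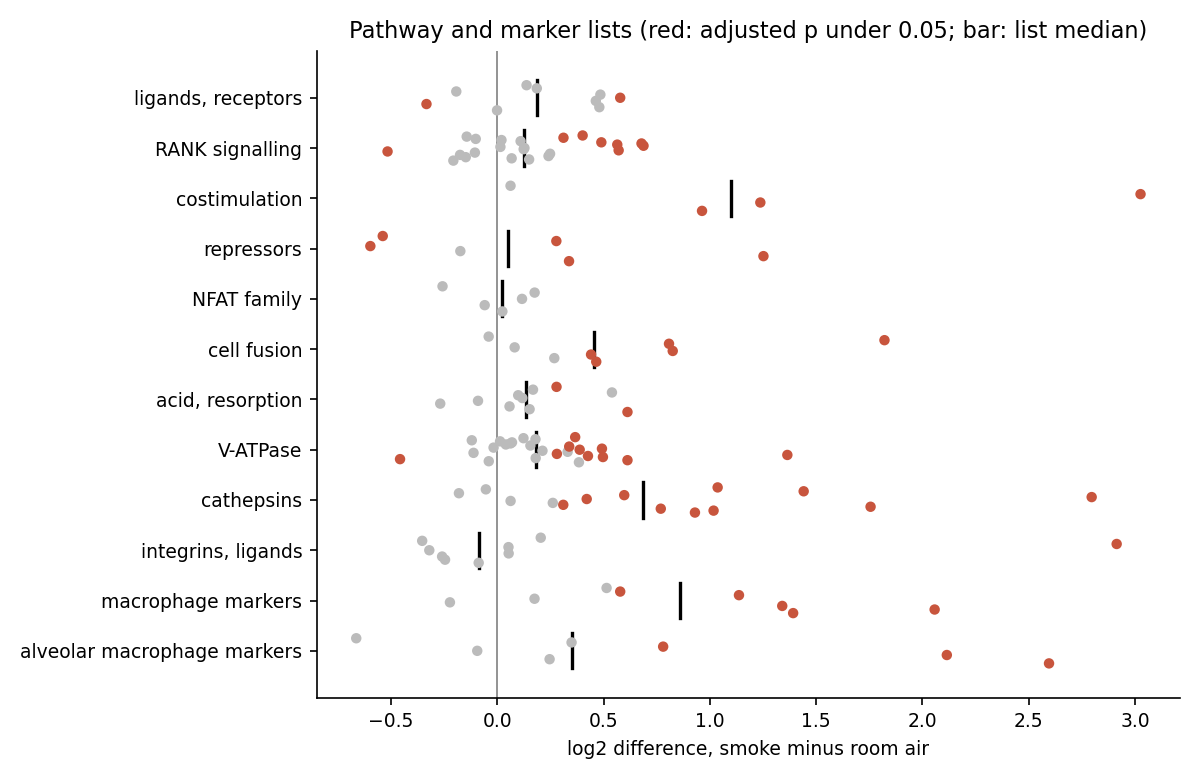
Log2 difference between smoke and room air for each measured gene of the pathway and marker lists, with genes past an adjusted p of 0.05 in red, the others in grey, and the list median as a black bar. Cathepsins, costimulation genes and macrophage markers have medians of 0.68, 1.10 and 0.86, and the NFAT family and the integrins have medians near 0.

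Itgb3, the beta-3 chain of the integrin by which osteoclasts attach to bone, did not pass, and its probes had opposite signs. The brighter probe, designed on a clone sequence, had log2 ratios of 1.42 to 1.68 with room air and 1.12 to 1.47 with smoke. The groups overlapped, and the difference of -0.25 (SE 0.08, adjusted p = 0.0878) was negative on 5 of 5 slides; with the slide as a replicate block it passed (adjusted p = 0.016), as it did without smoke replicate 1 (-0.29, adjusted p = 0.0495). The probe designed on the reference transcript gave 0.16 (SE 0.17, adjusted p = 0.762). Of 9 genes for this integrin, its relatives and ligands 1 rose: Spp1, the matrix ligand osteopontin, rose 7.54-fold (SE 0.07, adjusted p = 1.13e-09). Itgav, the alpha chain that pairs with Itgb3, had a difference of -0.09 (adjusted p = 0.72), and Itgb5, Itgb6 and Itgb8 had 0.05, -0.32 and 0.05. Itgb5 gave -0.01 when room air replicate 1 was left out. Fn1 had a difference of 0.20, and Itgb1 and Vtn had -0.26 and -0.35. Itgb1 and Vtn passed with the slide as a replicate block (adjusted p = 0.022 and 0.00422) and without room air replicate 4 (-0.33 and -0.47, adjusted p = 0.0297 and 0.042). Vtn also passed with both settings that used red alone (-0.71 and -0.67, adjusted p = 0.0304 and 0.00975).

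**Figure D4:**
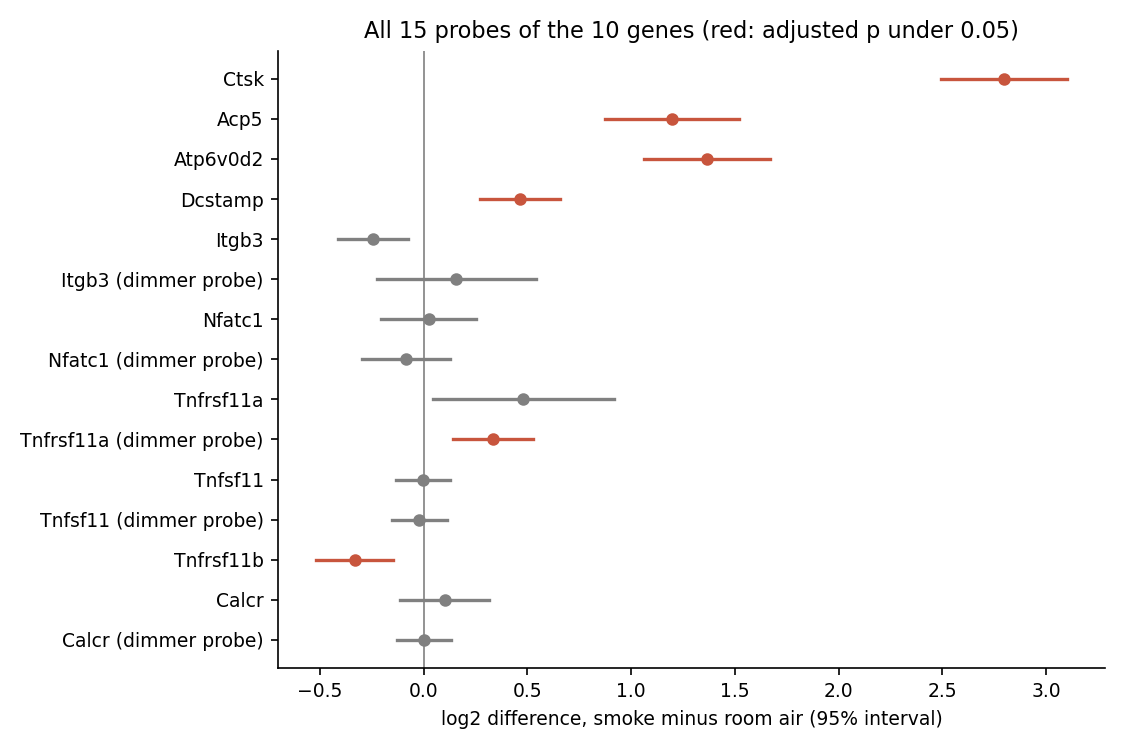
Log2 difference between smoke and room air with its 95% interval, not adjusted for the number of probes, for all 15 probes of the 10 osteoclast-type genes; red marks an adjusted p under 0.05. The probes of Itgb3 lie on opposite sides of 0, and of the probes of Tnfrsf11a the dimmer one passed.

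Calcr, the calcitonin receptor and a marker of the mature osteoclast, had log2 ratios of 1.10 to 1.54 with room air and 1.26 to 1.70 with smoke in its brighter probe. The groups overlapped, with a difference of 0.10 and a 95% interval of -0.12 to 0.32 (adjusted p = 0.717). Its dimmer probe, well above background on 3 of 5 arrays in each group, gave 0.00. Neither was well above background in green on any array, so that these ratios rest on the red signal over a reference near background. Of the other genes described that were well above background in red on every array, the same holds for Cd200r1, Ccr2 and Siglecf, with green well above background on 0 of 10 arrays. Green was so on 1 array for Atp6v0a4, on 2 for Fabp1, Klra21, Mrc1 and Slc9b2, on 4 for Itgam and on 6 for Olr1. Of the defining markers of mature osteoclasts measured (Calcr, Ocstamp and Oscar), all were well above background in every lung in red and 0 of 3 passed by their brightest probe. Of 6 markers of bone-forming cells, 1 rose: Phex, 1.88-fold (adjusted p = 0.000593). In red, Ibsp and Dmp1 were well above background on 1 and 2 of the 10 arrays.

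Markers of macrophages moved with the genes that rose. Of 8 general macrophage markers 5 rose and 0 fell, with a median difference of 0.86; Cd68 rose 4.16-fold, Adgre1 2.62-fold, Itgax 2.53-fold and Mrc1 2.20-fold. Their summed red signal, led by Lyz2, was 314764, 400361, 320000, 321874 and 377045 in room air replicates 1 to 5 and 328707, 467897, 400974, 289597 and 411685 in smoke replicates 1 to 5, so that the groups overlapped. Of 7 alveolar macrophage markers, with a median difference of 0.35, 3 rose and 0 fell: Marco 6.05-fold, Chil3 4.33-fold and Pparg 1.72-fold. Their summed red signal, led by Chil3, was 26153, 27344, 28507, 25129 and 27529 with room air and 95422, 100364, 97136, 85771 and 96138 with smoke. Every smoke lung lay above every room air lung in this sum, while Siglecf had a difference of 0.25 (adjusted p = 0.312) and Fabp1 of -0.66 (adjusted p = 0.0628). Krt79 and Car4 had differences of 0.35 and -0.09 and did not pass either (adjusted p = 0.291 and 0.832). The part of these cells in the rise of Ctsk, Acp5, Atp6v0d2 and Dcstamp was not tested.

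With the slide as a replicate block Itgam also passed as higher (adjusted p = 0.0313), and Mertk and Fabp1 as lower (adjusted p = 0.0352 and 0.011). Itgam and Fabp1 also passed when room air replicate 1 was left out (differences 0.67 and -0.73, adjusted p = 0.0212 and 0.0446).

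Markers of other cells gave fewer calls. Of the 3 neutrophil, 2 monocyte, 4 T cell and 3 B cell markers measured, 0 passed; with the slide as a replicate block the T cell markers Cd3d and Cd3g did (adjusted p = 0.0327 and 0.00538). The neutrophil and monocyte counts depended on room air replicate 1. The summed red signal of the neutrophil markers, led by S100a9, was 108784, 22082, 16234, 18908 and 25751 with room air and 50289, 37635, 27315, 32875 and 34631 with smoke. Every smoke lung lay above room air replicates 2 to 5 and below replicate 1. The neutrophil marker S100a8 and the monocyte marker Ccr2 had differences of 0.47 and 0.42 (adjusted p = 0.718 and 0.499). When room air replicate 1 was left out these were 0.97 and 0.67 and passed (adjusted p = 0.00459 and 0.0279). S100a8 is among the markers by which that lung was singled out. Of 5 fibroblast markers 2 fell, Pdgfra by 0.49 (adjusted p = 5.93e-05) and Dcn by 0.49 (adjusted p = 0.0107) on the log2 scale, and of 3 endothelial markers Pecam1 fell by 0.41 (adjusted p = 0.0488). The summed red signal of the endothelial markers, led by Cldn5, was 66348, 64210, 82077, 75359 and 79858 with room air and 47685, 41614, 51783, 45142 and 49536 with smoke. This sum is not a ratio to the reference: by the log2 ratio Cldn5 and Cdh5 had differences of -0.12 and -0.10, with overlapping groups, and did not pass (adjusted p = 0.654 and 0.835). Of 4 megakaryocyte and platelet markers Pf4 rose 2.08-fold (adjusted p = 0.0015), and their summed red signal, led by Pf4, was 2595 to 3888 with room air and 4714 to 6852 with smoke. The others, Itga2b, Gp9 and Gp1ba, had differences of 0.10, 0.19 and -0.08 and did not pass (adjusted p = 0.877, 0.747 and 0.827). The part of these cells in the results was not tested.

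The genes most alike in profile were sought for the 3 osteoclast-type genes with a fold change over 2, among 13898 genes well above background in red on all 10 arrays. Likeness was the root mean square difference between log2 ratios, each centred on its own mean over the 10 arrays. For Ctsk the closest were Hal, an enzyme of histidine breakdown (0.17), Spp1 (0.24) and Stra6l (0.32), which rose 6.97-fold, 7.54-fold and 5.28-fold. For Acp5 they were Lypd6b (0.12), Sla (0.13) and Olr1, a receptor for oxidised lipoprotein (0.13), which rose 2.07-fold, 2.22-fold and 2.51-fold. For Atp6v0d2 they were Klra21 (0.14), Cd200r1 (0.17) and Havcr2 (0.17), which rose 2.33-fold, 2.25-fold and 2.22-fold, the first and second of them over a reference near background. Klra21 lost its call with offset 0 and with the scanner's own ratio (1.46 and 1.93 on the log2 scale, adjusted p = 0.145 and 0.326). The size for Cd200r1 was 1.17, and up to 2.35 with the scanner's own ratio. For Stra6l it ran from 1.44 as the mean of all its probes to 3.71 with the scanner's own ratio, and for Havcr2 it was 1.15, and 0.67 as the mean of all its probes. A small difference of this kind mostly reflects a like size of change between the groups.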

How the data were processed

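Lung RNA of 10 mice was hybridised to Agilent arrays. The authors deposited scanner files, in which Feature Extraction 9.5.3.1, per the file headers, gives red and green intensity; the labels name version 9.1. In the same deposited files a log10 ratio of processed signals is given, and a deposited table made by the authors holds log2 values that equal the mean of both channels of median signal minus background, with medians of 7.34 to 8.06 per array and no centring. The build and probe coordinates of the array design were not used here.

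Mean intensities were corrected with normexp (offset 50) against the median local background, an offset that draws dim probes toward no change, and ratios were normalized by loess within arrays with control spots at weight 0. Outlier spots were left out and spots of a probe averaged. The two-sided test between groups was that of limma 3.58.1 (lmFit, then eBayes), run in R 4.3.3; p values were adjusted by the method of Benjamini and Hochberg across 41173 probes. The methods name limma for normalization and Wilcoxon tests; with 5 against 5 the smallest exact Wilcoxon p is 0.00794. Of the probes named, a set that includes a probe without a test, 22951 were named by accession, 6659 by current symbol and 3109 by synonym. The other 8455 kept the name in the file. The probe brightest in red represents a gene. Red and green means are after loess and Aquantile. The limma test, but not the steps before it, was tried on simulated ratios. Their noise was independent between arrays, without the pairing by slide.

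Members and lists were chosen with earlier results of these data known. Named genes are the members, list genes that passed and had a fold above 1.5, any gene of a list of 12 or fewer, and the 3 genes most alike to each member with a fold change over 2; a few genes that the rule or the marker lists name are counted with their lists but not reported singly here. By the headers' barcodes, 5 slides, scanned over 4 days, each carried the smoke and the room air array of 1 replicate number. Deviations from the group means were correlated within slides (0.157, 0.461, 0.46, 0.55 and 0.415; between different numbers at most 0.205), so the slide pairs the samples. The main test did not use this pairing, and the fits with the slide as a replicate block did. Smoke lay in place 1 and room air in place 2 of every slide, so place and exposure cannot be told apart.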

Additional observations from a re-analysis of the deposited data

Results flagged for a closer look

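In a group of 5 lungs, a lung was noted when its gap to the nearest other lung, divided by the range of the group, was above 0.71. Of 154 groups of lungs examined, 23 met this, and chance gives about 1 in 20. Among the osteoclast-type genes these were Ctsk, where smoke replicate 4 was lowest (0.745), with a log2 ratio of 4.56 where the next was 4.83, and Tnfrsf11a, where room air replicate 1 was highest (0.806), at 1.48 where the next was 0.51. Without these lungs the log2 differences were 2.86 for Ctsk and 0.70 for Tnfrsf11a.

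Room air replicate 1 was also the highest of its group by such a gap in Adam8 (0.786), Cd44 (0.837), Ctsc (0.846), Fcer1g (0.756), Mmp9 (0.802), Sla (0.725), Snx10 (0.732) and Tnf (0.845), and the lowest in Id1 (0.734) and Id3 (0.714). Other room air lungs stood apart in Id2 (replicate 3, lowest, 0.752), Nfat5 (replicate 2, highest, 0.81), Nfatc4 (replicate 2, lowest, 0.773) and Stra6l (replicate 3, lowest, 0.883). Among smoke lungs, replicate 1 was lowest in Fcer1g (0.828), replicate 2 in Sla (0.839), replicate 3 in Nfatc2 (0.751) and replicate 4 in Hal (0.711), and replicate 3 was highest in Cd200r1 (0.765), Ctsa (0.73) and Havcr2 (0.711).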

How the results depend on the processing

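Without any 1 of the 10 arrays, Ctsk, Acp5, Atp6v0d2 and Dcstamp kept their direction and their calls; their log2 differences ran from 2.67 to 2.87, 1.10 to 1.31, 1.25 to 1.45 and 0.41 to 0.52. The count of osteoclast-type genes past the threshold was 4 to 6 in these fits, that of the other 104 pathway genes 32 to 45 (41 with all arrays) and that of all probes 2097 to 3665 (2908 with all arrays). With the replicate block 5025 probes passed, 2870 of the 2908 among them, and 6 osteoclast-type genes, Itgb3 being added. Of all 27669 genes tested, 2083 then passed as higher and 1737 as lower, against 1372 and 906 in the main fit. Beyond the calls given with the results, the block added Atp6v0a1, Atp6v1a and Ctsf as higher and Traf6 as lower. These genes were named after their values were seen.

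Offset 0 gave 1665 probes, median centring 1434 and the processed red signal alone 1759; of all calls 61.7% were higher with smoke, against 73.2% with offset 0 and 47.9% with median centring. The processed red signal gave 3 osteoclast-type genes and 27 pathway genes, while red alone after normexp and quantile normalization gave 2329 probes, 5 osteoclast-type genes and 34 pathway genes; median centring gave 22 pathway genes. The cause was not tested. The Wilcoxon test, named in the methods and run here in its exact form, gave 0 probes, 0 osteoclast-type genes and 0 pathway genes after adjustment, against 5450 probes at an unadjusted p under 0.05 (7477 by limma). Its smallest p with 5 against 5, 0.00794, passes adjustment only if a large share of all probes reach it. These counts of 0 therefore say little about single genes.

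The authors' table, which averages both channels and holds the groups the other way round, gave 13 probes, 1 osteoclast-type gene and 2 pathway genes. Its log2 differences had the opposite sign for Ctsk (-2.45), Acp5 (-0.71), Atp6v0d2 (-1.62), Dcstamp (-1.23), the dimmer probe of Tnfrsf11a (-0.16), Tnfrsf11b (0.36), Adam8 (-0.89), Btk (-0.52), Cd44 (-0.43), Cd9 (-0.17), Csf1r (-0.30), Ctsa (-0.39), Ctsb (-0.40), Ctsc (-0.37), Ctsd (-0.66), Ctsl (-0.21), Ctss (-0.52), Ctsz (-0.44), Fcer1g (-0.63), Hal (-2.11), Havcr2 (-0.98), Id1 (0.38), Id2 (-0.11), Id3 (0.33), Irf8 (-0.25), Klra21 (-0.35), Lypd6b (-0.65), Olr1 (-1.82), Sirpa (-0.36), Sla (-0.49), Slc9b2 (-0.64), Spp1 (-1.32), Stra6l (-1.72), Syk (-0.30), Tcirg1 (-0.32), Trem2 (-1.42) and Tyrobp (-0.51). With its columns assigned to the scanner files they equal, an alternative chosen after seeing the data, the counts were again 13, 1 and 2, with the signs turned. Sign changes of differences past the threshold in neither fit are not listed. Across arrays the red signal had a median of 1.68 to 2.82 times background, which limits dim probes such as those of Dcstamp and Tnfsf11.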
